A study of Mus musculus with 48 samples.

Results

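The transcript levels of p53 (Trp53) and 9 of its target genes, Mdm2, Cdkn1a, Bax, Bbc3, Pmaip1, Ccng1, Trp53inp1, Sesn2 and Phlda3, were examined in the mouse cerebral cortex. These 10 genes were chosen by symbol and are 10 of the 24444 genes in the deposited table. Bulk RNA-seq had been performed on the cortex of one hemisphere of 48 male mice on a C57BL/6J background. At each of 4 ages, E14.5 (embryonic day 14.5), 1 month, 6 months and 12 months, 6 mice were WT and 6 carried the heterozygous Chd8 V986* mutation (Chd8 V986*/+). The V986* allele places stop codons at V986 of the chromatin remodeler CHD8, is present in every cell, and descends from 1 male founder, and the WT controls were littermates. The labels do not say which litters the mice came from, so p values measure the spread between these mice.

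p53 is a transcription factor that is held at a low level by the ubiquitin ligase MDM2, which is itself a p53 target, and that accumulates after DNA damage or other stress, mostly through protein stabilization rather than through its own transcript. It then raises transcription of genes that arrest the cell cycle, trigger mitochondrial apoptosis or adjust metabolism. CHD8 has been described as a partner of p53 that recruits linker histone to p53 target genes and lowers their transcription, and p53 activity in neural progenitors is a known cause of microcephaly. The data hold transcript levels only, and no level or activity of the p53 protein. In bulk cortex, fewer cells that express a gene and less RNA of that gene per cell cannot be told apart.

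Expression is given as VST-normalized expression, a variance-stabilized value on a log2 scale on which a difference of 1 is close to a doubling and is understated near the floor of 2.14, the most frequent value in the table. All 10 genes lay at least 2.83 above this floor in every mouse. Because VST values are not scaled by transcript length, levels are compared between groups and not between genes. Genes with a limma adjusted p (adjp) below 0.1 over all genes tested were counted as changed, and ± denotes the SD of 6 mice for a level and the SE for a difference.

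The loci are spread over several chromosomes of mm9. Trp53 lies at chr11:69393861-69405375 (plus strand), Ccng1 at chr11:40562054-40568813 (minus strand), Mdm2 at chr10:117125944-117147814 (minus strand) and Cdkn1a at chr17:29227924-29237667 (plus strand). Bax lies at chr7:52717065-52722268 (minus strand) and Bbc3 at chr7:16894965-16903554 (plus strand). Trp53inp1 lies at chr4:11083578-11101526 (plus strand) and Sesn2 at chr4:132047947-132066416 (minus strand). Phlda3 lies at chr1:137662696-137665713 (plus strand). RefSeq promoter windows in GRCm38.p6, from 250 bases before to 50 after the start site, were found for 8 of the 10 genes, in 11 windows. The windows were searched for the p53 consensus site, a pair of 10-base half-sites separated by at most 13 bases, each half-site with a C at the fourth and a G at the seventh base. The consensus is its own reverse complement, so one pass covers both strands. A site with at least 18 of its 20 bases matching was found for Cdkn1a, Ccng1 and Bax, that is, for 3 of the 8 genes, and in 4.09% of all 32851 windows. The former counts genes, of which some had more than 1 window, and the latter counts windows, so they are not like shares. The 250 bases before the start site of the window with the match are shown 5′ to 3′ because these 3 genes carry the closest matches among the 8. The half-sites and any spacer are in capitals. Cdkn1a had another window (chr17:29093519-29093818, plus strand), whose best match was 15 of 20 bases. The Cdkn1a window (chr17:29090729-29090978, plus strand) matches at 20 of 20 bases with a spacer of 12 bases, the Ccng1 window (chr11:40755287-40755536, minus strand) at 19 bases with no spacer and the Bax window (chr7:45466899-45467148, minus strand) at 18 bases with a spacer of 1 base. The capitals mark the pair with the most matching bases. In Cdkn1a, the 10 bases directly after the capitals fit a half-site at all but the first base. They form a pair without spacer with the half-site before them.
Cdkn1a: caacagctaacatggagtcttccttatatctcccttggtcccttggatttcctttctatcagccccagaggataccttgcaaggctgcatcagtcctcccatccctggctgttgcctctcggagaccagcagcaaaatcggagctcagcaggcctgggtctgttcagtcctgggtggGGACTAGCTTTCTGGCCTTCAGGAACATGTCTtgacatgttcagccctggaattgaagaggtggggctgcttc
Ccng1: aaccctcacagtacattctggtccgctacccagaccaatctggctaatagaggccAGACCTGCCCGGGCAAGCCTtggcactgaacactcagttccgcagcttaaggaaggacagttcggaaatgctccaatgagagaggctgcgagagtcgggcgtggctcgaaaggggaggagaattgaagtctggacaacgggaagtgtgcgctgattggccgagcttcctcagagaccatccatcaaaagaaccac
Bax: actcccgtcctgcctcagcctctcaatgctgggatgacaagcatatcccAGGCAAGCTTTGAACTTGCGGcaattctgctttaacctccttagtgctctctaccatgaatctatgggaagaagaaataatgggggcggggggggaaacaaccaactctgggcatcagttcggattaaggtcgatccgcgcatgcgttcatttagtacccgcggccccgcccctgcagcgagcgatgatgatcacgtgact
A match to the letters is a description of the sequence and not a measurement of binding. As given below, Cdkn1a and Ccng1 rose and Bax fell between E14.5 and 1 month.

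The tissue and the genotype were checked first. Chd8 ranged from 11.60 to 12.03 in Chd8 V986*/+ and from 12.33 to 12.66 in WT mice at E14.5, and the genotypes did not overlap at any age, with Chd8 V986*/+ lower by differences of -0.63, -0.67, -0.64 and -0.54 at E14.5, 1, 6 and 12 months and adjp between 1.07e-07 and 0.0261. The cortical marker Tbr1 lay between 11.48 and 13.14 in every group. Eomes, another of the 12 cortical markers, ran from 12.82 in a WT embryo to 2.71 in a Chd8 V986*/+ mouse at 12 months. Markers of nearby tissue varied at 1 month. The mean of 6 choroid plexus markers ranged from 5.89 to 8.65 in WT and from 5.94 to 9.085 in Chd8 V986*/+ mice. The mean of 6 striatal markers ranged from 9.165 to 11.07 and from 10.14 to 10.95. The part of these tissues in the 10 genes was not tested. At E14.5, the mean of 35 midbrain, hindbrain and spinal cord markers was 5.42, 5.44 and 6.90 in WT replicates 2, 3 and 5 and ranged from 3.54 to 4.84 in the other 9 embryos, with 4 of the 35 markers near the floor on average in WT and 15 in Chd8 V986*/+ embryos. Without these 3 WT embryos, 0 of the 10 genes were called between genotypes at E14.5 and 10 of 10 between E14.5 and 1 month in WT, the same counts as with them. With all embryos, 0.00593% of all genes were called between genotypes, and in the WT step 43.9% were higher and 41.7% lower. Equal counts therefore do not show whether this tissue affects the 10 genes. For every gene, the means of replicates 1 to 3 and of replicates 4 to 6 were equal over the table, so that a difference between these sets had been removed before deposition, and genotype differences are also given within each set where the sets diverged most.

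**Figure D1:**
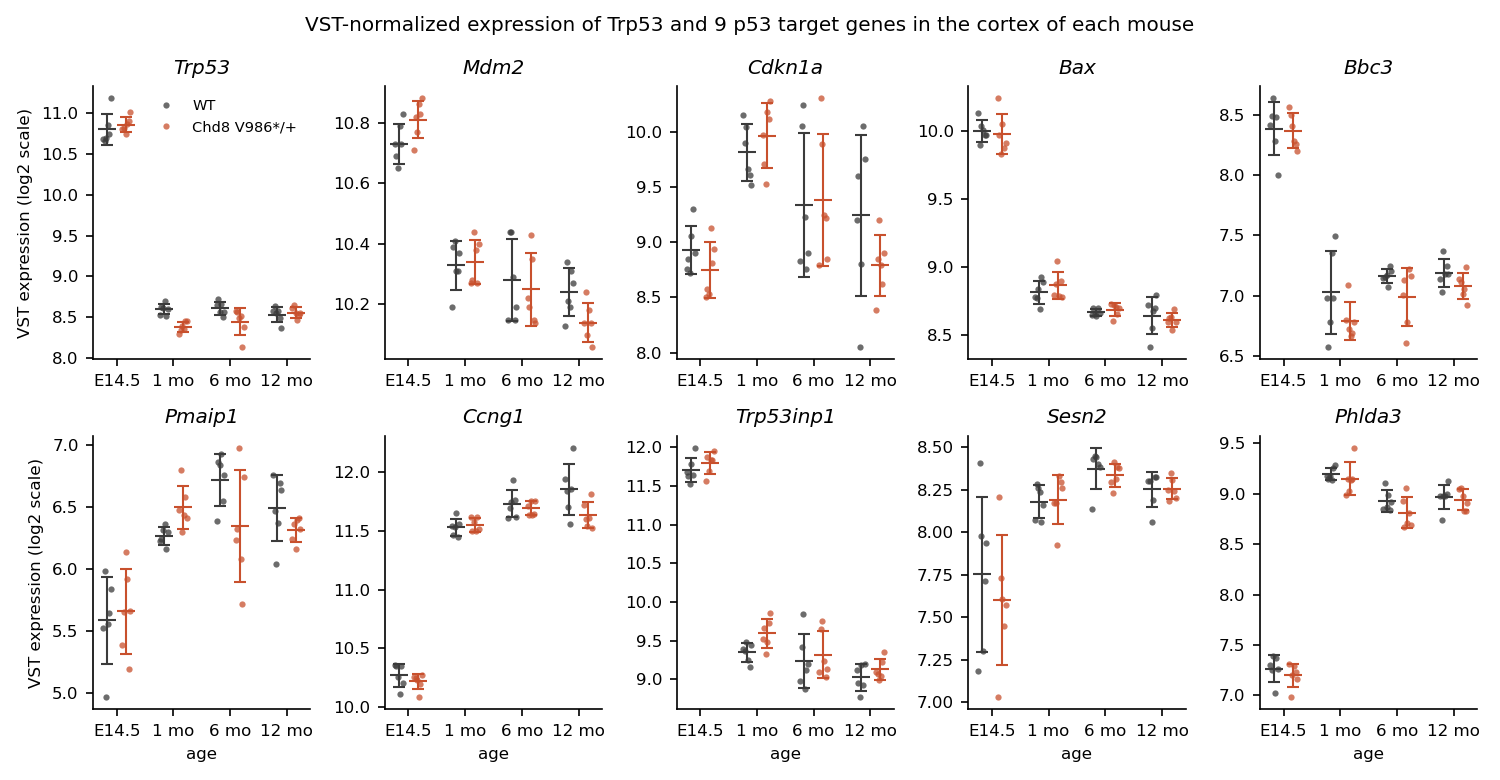
VST-normalized expression (log2 scale, y axis) of the 10 genes in each mouse at E14.5, 1, 6 and 12 months (x axis), with WT mice in dark grey and Chd8 V986*/+ mice in orange, and the mean and SD of 6 mice as bars. Each gene has its own y axis. All 10 genes shift between E14.5 and 1 month, 5 upwards and 5 downwards, and the genotypes overlap except for Trp53 at 1 month.

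The largest changes of this gene set followed age. Between E14.5 and 1 month, all 10 genes changed in WT mice and all 10 in Chd8 V986*/+ mice, and each in the same direction in both genotypes. The set did not move one way, since 5 rose (Phlda3, Ccng1, Cdkn1a, Pmaip1 and Sesn2) and 5 fell (Trp53inp1, Trp53, Bbc3, Bax and Mdm2). This step changed most genes of the cortex, with 43.9% of 17342 genes higher and 41.7% lower in WT and 44.5% of 17291 genes higher and 42.1% lower in Chd8 V986*/+ mice, so the share of the 10 genes that changed is read against that background. The 10 genes had a median difference of 0.01 (WT) and 0.06 (Chd8 V986*/+), beside 0.03 and 0.04 over all genes tested.

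Trp53 itself had one of the largest decreases of the set. In WT mice it ranged from 10.66 to 11.18 with a median of 10.72 at E14.5 and from 8.52 to 8.69 with a median of 8.61 at 1 month. In Chd8 V986*/+ mice the ranges were 10.74 to 11.01 (median 10.85) and 8.30 to 8.45 (median 8.38). Every embryo thus lay above every 1-month mouse. The difference was -2.21 ± 0.07 in WT (adjp = 6.87e-21), to 21.7% of the embryonic level, and -2.48 ± 0.06 in Chd8 V986*/+ mice (adjp = 1.67e-23). Without the 3 WT embryos high in hindbrain markers the WT difference was -2.31.

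Mdm2, which encodes the ligase that targets p53 for degradation, fell by a smaller amount. It ranged from 10.65 to 10.83 (median 10.73) in WT embryos and from 10.19 to 10.41 (median 10.34) in WT mice at 1 month, a difference of -0.40 ± 0.06 (adjp = 2.61e-07). In Chd8 V986*/+ mice it went from 10.71 to 10.88 (median 10.82) to 10.27 to 10.44 (median 10.33), a difference of -0.47 ± 0.05 (adjp = 1.21e-09). The 2 ages did not overlap in either genotype, although the change was small beside that of Trp53.

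The apoptotic targets split by gene. Bax, the pore-forming effector of the mitochondrial pathway, ranged from 9.90 to 10.13 (median 9.99) in WT embryos and from 8.69 to 8.92 (median 8.81) at 1 month, a difference of -1.19 ± 0.06 (adjp = 1.33e-16). Bax in Chd8 V986*/+ mice differed by -1.12 ± 0.06 (adjp = 3.07e-16). Bbc3, which encodes the BH3-only protein PUMA, ranged from 8.0 to 8.64 (median 8.45) in WT embryos and from 6.57 to 7.49 (median 6.98) at 1 month. No embryo overlapped a 1-month mouse in Bax or in Bbc3. The Bbc3 difference was -1.36 ± 0.12 in WT (adjp = 4.23e-11) and -1.58 ± 0.10 in Chd8 V986*/+ mice (adjp = 1.98e-14).

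Pmaip1, which encodes the BH3-only protein NOXA, moved the other way. It ranged from 4.97 to 5.98 (median 5.60) in WT embryos and from 6.16 to 6.37 (median 6.27) in WT mice at 1 month. In Chd8 V986*/+ mice it ranged from 5.19 to 6.14 (median 5.65) and from 6.30 to 6.80 (median 6.45). The embryos were lower and also more variable, with an SD of 0.35 against 0.07 in WT. The increase was 0.68 ± 0.14 in WT (adjp = 7.31e-05) and 0.84 ± 0.16 in Chd8 V986*/+ mice (adjp = 3.86e-05). Pmaip1 lay closest to the floor, where a difference is understated.

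Among the genes of cell cycle arrest, Cdkn1a, which encodes the cyclin-dependent kinase inhibitor p21, rose. It ranged from 8.72 to 9.30 (median 8.87) in WT embryos and from 9.51 to 10.15 (median 9.78) at 1 month, and from 8.50 to 9.13 (median 8.69) and 9.53 to 10.28 (median 10.04) in Chd8 V986*/+ mice. The 1-month mice lay above the embryos in both genotypes. The differences were 0.88 ± 0.26 in WT (adjp = 0.0034) and 1.21 ± 0.20 in Chd8 V986*/+ mice (adjp = 2.38e-06). Ccng1, which encodes cyclin G1, a regulator of MDM2 through protein phosphatase 2A, rose from 10.11 to 10.36 (median 10.30) to 11.45 to 11.65 (median 11.53) in WT mice. The Ccng1 differences were 1.26 ± 0.08 in WT (adjp = 1.37e-14) and 1.34 ± 0.05 in Chd8 V986*/+ mice (adjp = 2.10e-20).

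The remaining targets act in stress signaling. Trp53inp1, which encodes a nuclear protein that supports p53 phosphorylation and autophagy, had the largest decrease of the set in WT mice, from 11.53 to 11.99 (median 11.66) to 9.16 to 9.48 (median 9.38), a difference of -2.36 ± 0.12 (adjp = 1.21e-16). Trp53inp1 in Chd8 V986*/+ mice differed by -2.20 ± 0.11 (adjp = 6.41e-17). Phlda3, which encodes an inhibitor of AKT, had the largest increase, from 7.02 to 7.39 (median 7.28) to 9.13 to 9.28 (median 9.18) in WT mice. Both genes separated the ages completely. The Phlda3 differences were 1.93 ± 0.07 in WT (adjp = 6.00e-20) and 1.95 ± 0.08 in Chd8 V986*/+ mice (adjp = 7.06e-19), a rise to 3.81 and 3.87 times the embryonic level.

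Sesn2, which encodes sestrin 2, a leucine sensor that restrains mTORC1, was the least clear of the 10. It ranged from 7.19 to 8.41 (median 7.83) in WT embryos and from 8.06 to 8.29 (median 8.20) at 1 month, and from 7.03 to 8.21 (median 7.59) and 7.92 to 8.33 (median 8.22) in Chd8 V986*/+ mice. The ages overlapped in both genotypes, and embryo replicate 2 was the highest in each. The differences were 0.43 ± 0.13 in WT (adjp = 0.0046) and 0.59 ± 0.11 in Chd8 V986*/+ mice (adjp = 2.90e-05). Without the 3 WT embryos high in hindbrain markers the WT difference in Sesn2 was 0.71, and within replicates 1 to 3 it was 0.35 with adjp = 0.165.

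**Figure D2:**
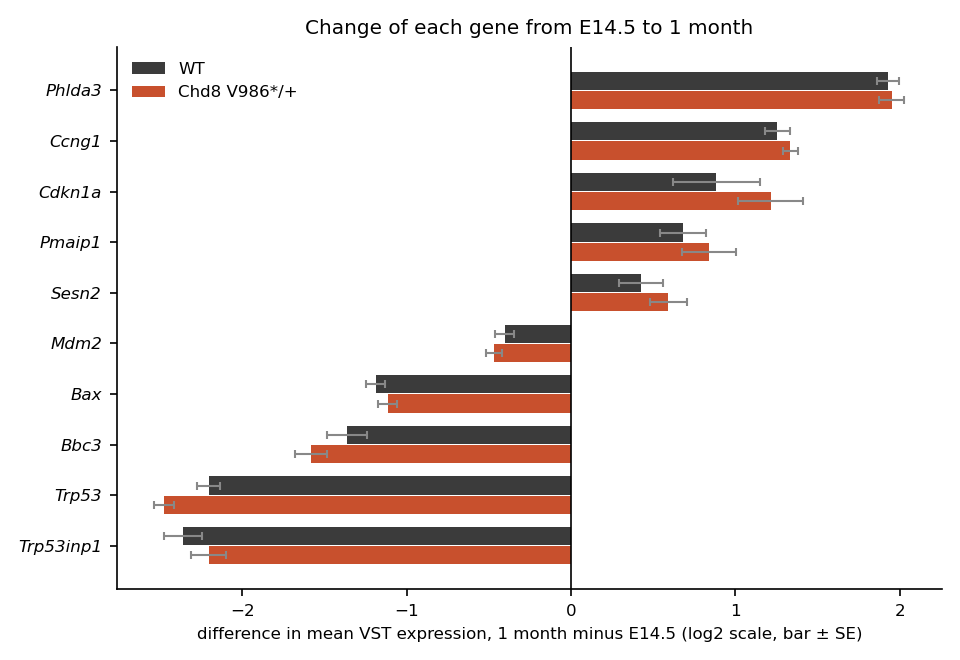
Difference in mean VST-normalized expression between 1 month and E14.5 (log2 scale, x axis) for each of the 10 genes, with WT in dark grey, Chd8 V986*/+ in orange and the SE as whiskers. The differences run from 1.93 for Phlda3 to -2.36 for Trp53inp1 in WT mice and have the same sign in both genotypes for each gene.

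Markers of other cell types moved with this step. The mean of 10 genes of dividing cells, 0 of them near the floor at any age, ranged from 10.89 to 11.71 in WT embryos and from 6.12 to 6.42 in WT mice at 1 month, and from 11.12 to 11.64 and 6.24 to 6.44 in Chd8 V986*/+ mice. The mean of 8 astrocyte markers rose from between 7.89 and 8.40 to between 12.89 and 13.14 in WT mice, and that of 8 oligodendrocyte markers from between 6.66 and 7.25 to between 12.98 and 13.32. The part of these cell types in the changes of the 10 genes was not tested.

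Genes that regulate p53, or belong to its family, mostly fell at the same step. Of 24 regulators and relatives tested, 3 rose and 19 fell in WT mice and also in Chd8 V986*/+ mice, with medians of -0.63 and -0.61. The largest decreases in WT were those of Trp73, a p53 homolog, at -3.63 ± 0.16, and of the DNA damage checkpoint kinases Chek1 at -3.32 ± 0.15 and Chek2 at -2.43 ± 0.18. The increases were those of Trp63, another homolog, at 1.52 ± 0.20, Ppp1r13b, which encodes the p53-binding protein ASPP1, at 0.76 ± 0.08, and the kinase Hipk1 at 0.29 ± 0.07. Adjp of these 6 genes was 0.00088 or lower.

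Further p53 targets went both ways, as the 10 genes did. Of 41 tested, 25 rose and 14 fell in WT mice (median 0.54), and of 42 tested in Chd8 V986*/+ mice, 23 rose and 14 fell (median 0.49). In WT, Pvt1, a long non-coding RNA, rose by 3.26 ± 0.11, the epoxide hydrolase Ephx1 by 3.0 ± 0.10 and the transcriptional repressor Bcl6 by 2.75 ± 0.12. Ckap2 and Gtse1, which are expressed with the cell cycle, differed by -4.37 ± 0.19 and -4.35 ± 0.18, and Pidd1, a scaffold of caspase-2 activation, by -2.26 ± 0.17. Adjp of these 6 genes was 2.22e-12 or lower. Of 16 apoptosis genes of the BCL2 and caspase families, 3 rose and 13 fell in WT (median -0.60), and 3 rose and 12 fell in Chd8 V986*/+ mice (median -0.59). Bmf, a BH3-only gene, differed by -2.05 ± 0.09 in WT, whereas the BH3-only gene Hrk rose by 2.72 ± 0.08, Cycs, which encodes cytochrome c, by 0.96 ± 0.06 and the caspase inhibitor Xiap by 0.45 ± 0.04, all with adjp of 1.73e-11 or lower.

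After 1 month the calls were fewer. Between 1 and 6 months, 2 of the 10 genes changed in WT mice, 1 higher and 1 lower, against a background of 6.86% of genes higher and 7.91% lower. In Chd8 V986*/+ mice 5 changed, 1 higher and 4 lower, against 11.0% higher and 10.8% lower, and the Cdkn1a mean went from 9.96 at 1 month to 9.38 at 6 months and 8.79 at 12 months, close to its embryonic mean of 8.75. Phlda3 was the gene that changed in both genotypes, from medians of 9.18 and 9.14 at 1 month to 8.89 and 8.76 at 6 months, with differences of -0.27 ± 0.07 in WT (adjp = 0.0104) and -0.34 ± 0.08 in Chd8 V986*/+ mice (adjp = 0.0036). No WT mouse at 6 months, with a highest value of 9.11, reached the lowest WT value at 1 month, 9.13. Pmaip1 rose in WT by 0.45 ± 0.14 (adjp = 0.0397), from a median of 6.27 to 6.80 with a lowest value of 6.39 at 6 months, above the highest at 1 month, whereas its difference in Chd8 V986*/+ mice was -0.15 ± 0.16 (adjp = 0.585).

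The other 4 genes changed in Chd8 V986*/+ mice. Cdkn1a differed by -0.58 ± 0.20 (adjp = 0.0438), from a median of 10.04 to 9.23, Bax by -0.18 ± 0.06 (adjp = 0.0352), Trp53inp1 by -0.28 ± 0.11 (adjp = 0.0827) and Ccng1 by 0.13 ± 0.05 (adjp = 0.0454). The same differences in WT had the same signs and did not pass the threshold, at -0.48 for Cdkn1a (adjp = 0.286), -0.15 for Bax (adjp = 0.109), -0.11 for Trp53inp1 (adjp = 0.621) and 0.20 for Ccng1 (adjp = 0.102). Whether these steps differ between the genotypes was not tested. The calls of this step depend on single mice and on the set of replicates: leaving out Chd8 V986*/+ replicate 1 or 6 at 6 months, or replicate 6 at 1 month, took the count from 5 to 3, and replicates 1 to 3 alone gave 0 calls in either genotype. Within replicates 1 to 3, the Chd8 V986*/+ difference of Cdkn1a was -0.07. Beside the decrease of Cdkn1a in these mice, 4 of 9 glucocorticoid-induced genes fell and 1 rose between 1 and 6 months (median -0.23), whereas in WT mice 2 rose and none fell (median 0.03).

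Between 6 and 12 months, 0 of the 10 genes changed in limma in either genotype, beside 0.0115% of all genes for WT and 1.88% for Chd8 V986*/+. An unadjusted p under 0.05 was found for 0 of the 10 in WT mice, where 7.40% of all genes had one, and for 2 in Chd8 V986*/+ mice, where 13.3% did. These were Cdkn1a at -0.59 ± 0.20 (adjp = 0.158) and Mdm2 at -0.10 ± 0.05 (adjp = 0.367), beside WT differences of -0.09 ± 0.26 and -0.03 ± 0.06. Without Chd8 V986*/+ replicate 1 or 6 at 6 months, Cdkn1a in Chd8 V986*/+ mice differed by -0.71 (adjp = 0.0765) or -0.70 (adjp = 0.0919). These replicates had the lowest Cdkn1a of their group, at 8.79 and 8.85, so leaving out either enlarges the decrease. Of the 9 glucocorticoid-induced genes, 2 fell at this step in Chd8 V986*/+ mice and 9 had a negative difference with an unadjusted p under 0.05 (median -0.33). In WT mice 0 passed and 1 had an unadjusted p under 0.05 (median -0.14).

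Among the lists, the largest WT changes between 1 and 6 months were in Ckap2 at -0.94 ± 0.19, Bmf at -0.76 ± 0.09 and Gtse1 at -0.73 ± 0.18, with increases of Casp1 by 0.72 ± 0.26, Btg2, an antiproliferative gene, by 0.57 ± 0.18 and Rrm2b, a p53-inducible ribonucleotide reductase subunit, by 0.25 ± 0.06. In all, 3 of 41 further targets rose and 4 fell, among the latter Ei24 at -0.20 ± 0.04. Of the 24 regulators, Rfwd2, which encodes the ubiquitin ligase COP1, fell by 0.19 on the log2 scale, and no other passed. Of the 16 apoptosis genes, Casp9 rose by 0.31 ± 0.06 and 5 fell, among them Hrk at -0.49 ± 0.08. Adjp of these genes was 0.0767 or lower. Markers of other cell types moved at the same step, with 7 of 10 genes of dividing cells lower in WT mice (median -0.88) and 7 of 8 oligodendrocyte markers lower (median -0.79), beside 7 of 10 (median -0.95) and 6 of 8 (median -0.98) in Chd8 V986*/+ mice. Ckap2 and Gtse1 are expressed in dividing cells, and the part of these cell types in the changes was not tested. Between 6 and 12 months 0 genes of these 3 lists changed in WT mice by limma, with 2, 1 and 1 at an unadjusted p under 0.05. In Chd8 V986*/+ mice, 7 further targets rose and 8 fell between 1 and 6 months, 4 regulators rose and 1 fell, and 1 apoptosis gene rose and 6 fell. Between 6 and 12 months, 1 further target rose and 1 fell and 1 apoptosis gene fell in these mice.

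Whether loss of 1 Chd8 copy shifts p53 or its targets was the question of the genotype comparison. None of the 10 genes differed between Chd8 V986*/+ and WT mice by limma at any age. The background was also low, at 0.00593% of 16877 genes at E14.5, 0.139% of 17221 at 1 month, 0.0927% of 17256 at 6 months and 0.0463% of 17288 at 12 months. The study used DESeq2 with the same threshold and reported many more genes over its 4 ages. No call by limma on these values therefore does not show that a gene is unchanged. At an unadjusted p under 0.05 there were 0, 3, 2 and 1 of the 10 genes at the 4 ages, beside 4.56%, 8.80%, 7.59% and 11.6% of all genes. The median difference of the 10 genes was -0.02, 0.02, -0.04 and -0.06, beside medians between -0.003 and 0.005 over all genes. Of the 40 differences, 17 were above 0 and 23 below, and the 30 that belonged to genes other than Cdkn1a with an unadjusted p of 0.05 or more lay between -0.24 and 0.10.

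**Figure D3:**
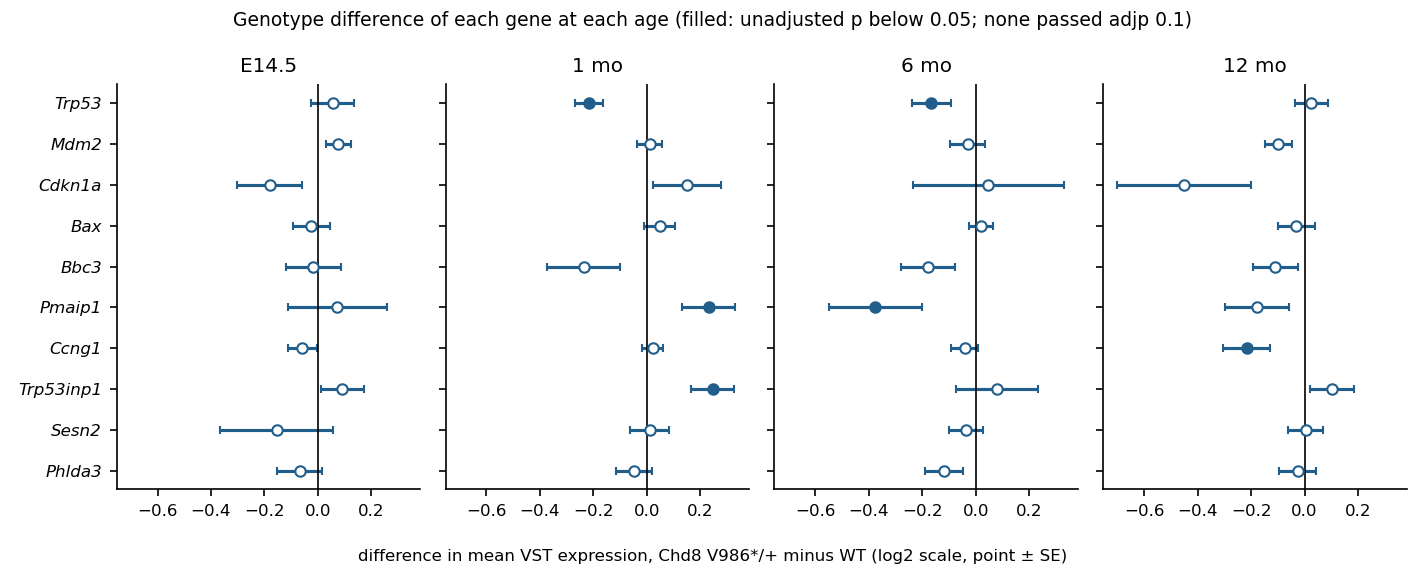
Difference in mean VST-normalized expression, Chd8 V986*/+ minus WT (log2 scale, x axis), of each gene at each of the 4 ages, with the SE as whiskers and filled points for an unadjusted p below 0.05. The 6 filled points lie between -0.38 and 0.25, and none of the 40 differences had an adjp below 0.189.

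Of the 10 genes, Trp53 at 1 month was the one whose genotypes did not overlap. Its WT values ranged from 8.52 to 8.69 (median 8.61) and its Chd8 V986*/+ values from 8.30 to 8.45 (median 8.38), so that the highest Chd8 V986*/+ mouse was under the lowest WT mouse. The difference was -0.22 ± 0.05, to 86.1% of the WT level, with adjp = 0.189 over all genes. The exact two-sided permutation test of 6 against 6 mice gave p = 0.0022, the smallest it can give, in 1 of 40 such tests and without adjustment. Groups that did not overlap made up 1 of 10 genes here and 0.825% of all genes at 1 month, and 0 of 10 at the other ages, beside 0.261% at E14.5, 0.527% at 6 months and 0.868% at 12 months.

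At 6 months Trp53 was again lower in Chd8 V986*/+ mice on average, with WT between 8.51 and 8.72 (median 8.61) and Chd8 V986*/+ between 8.14 and 8.57 (median 8.51). The groups overlapped, and 3 of 6 Chd8 V986*/+ mice lay below every WT mouse. The difference was -0.17 ± 0.07 (adjp = 0.62, exact p = 0.032 without adjustment). The difference was of the same sign within replicates 1 to 3 and within replicates 4 to 6 at both ages, at -0.24 and -0.19 at 1 month and -0.10 and -0.23 at 6 months. At E14.5 and 12 months the Trp53 means differed by 0.06 and 0.03, with exact p = 0.55 and 0.61.

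The other genes with an unadjusted p under 0.05 showed no common direction. Their exact p values are also without adjustment for the 40 tests. At 1 month Trp53inp1 ranged from 9.16 to 9.48 (median 9.38) in WT and from 9.33 to 9.86 (median 9.59) in Chd8 V986*/+ mice, a difference of 0.25 ± 0.08 (adjp = 0.372, exact p = 0.026), with 5 of 6 Chd8 V986*/+ mice above every WT mouse. It was 0.09 within replicates 1 to 3 and 0.40 within replicates 4 to 6. Pmaip1 at 1 month ranged from 6.16 to 6.37 (median 6.27) and from 6.30 to 6.80 (median 6.45), a difference of 0.23 ± 0.10 (adjp = 0.501, exact p = 0.0065), also with 5 of 6 mice above every WT mouse. Both exceeded WT while Trp53 lay below it in the same mice. At 6 months the Pmaip1 difference had the opposite sign, -0.38 ± 0.17 (adjp = 0.651, exact p = 0.095), with WT from 6.39 to 6.93 (median 6.80) and Chd8 V986*/+ from 5.72 to 6.98 (median 6.28). Within replicates 1 to 3 it was -0.19 and within replicates 4 to 6 -0.56.

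Some differences with a larger p had opposite signs in the sets. Bbc3 at 1 month differed by 0.09 within replicates 1 to 3 and by -0.56 within replicates 4 to 6. Pmaip1 at E14.5 differed by 0.24 and -0.09, and Phlda3 at 12 months by 0.13 and -0.18. The differences over all 6 mice were -0.24, 0.07 and -0.03. Each set holds 3 mice per group, and a difference between the sets was not tested.

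Ccng1 at 12 months ranged from 11.56 to 12.20 (median 11.85) in WT and from 11.52 to 11.81 (median 11.60) in Chd8 V986*/+ mice. The groups overlapped, and the difference was -0.22 ± 0.09 (adjp = 0.359, exact p = 0.054). In one fit of all 48 mice, which shares the estimate of the spread between ages, the same difference had adjp = 0.0759, where 3.0% of all genes passed, and was the only call among the 10 genes. The SD of Ccng1 was 0.22 in WT mice at 12 months, against 0.06 to 0.12 in the other groups. The shared estimate thus understates the spread at 12 months for this gene. The difference was close to equal in replicates 1 to 3 and 4 to 6, at -0.21 and -0.23.

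Cdkn1a had the widest spread of the set at 6 and 12 months in both genotypes, with SDs from 0.28 to 0.73, and its genotype difference changed with the mice taken. At E14.5 Sesn2 and Pmaip1 varied more, with SDs from 0.34 to 0.46 against 0.22 and 0.25 for Cdkn1a, and at 1 month Bbc3 did in WT mice, at 0.35 against 0.26. The differences were -0.18 ± 0.12 at E14.5 (adjp = 0.982), 0.15 ± 0.13 at 1 month (adjp = 0.782), 0.05 ± 0.28 at 6 months (adjp = 0.989) and -0.45 ± 0.25 at 12 months (adjp = 0.488). At 1 month, WT replicates 1 to 3 were 10.15, 9.90 and 10.04 and WT replicates 4 to 6 were 9.66, 9.60 and 9.51, while Chd8 V986*/+ replicates 1 to 3 were 9.97, 9.70 and 9.53 and replicates 4 to 6 were 10.18, 10.11 and 10.28. The order of the genotypes was thus opposite in the 2 sets. The difference was -0.30 within replicates 1 to 3 (adjp = 0.785) and 0.60 within replicates 4 to 6, where it passed the threshold (adjp = 0.0021), as did 1.45% of all genes in that set. A test of the difference between the sets was not run.

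At 6 months the high values of Cdkn1a fell on the same replicate numbers in both genotypes. WT replicates 2 and 3 were 10.05 and 10.24 and the other 4 WT mice lay between 8.75 and 9.23, while Chd8 V986*/+ replicates 2 and 3 were 10.30 and 9.89 and the other 4 lay between 8.79 and 9.25. Trp53inp1 was also highest in replicates 2 and 3 of both genotypes, at 9.43 and 9.84 in WT and 9.66 and 9.75 in Chd8 V986*/+ mice, and Mdm2 was highest in WT replicates 2 and 3, at 10.44 in each, and in Chd8 V986*/+ replicate 3, at 10.43. At 12 months the WT mice spread from 8.05 to 10.05 (median 9.40) and the Chd8 V986*/+ mice from 8.38 to 9.20 (median 8.82), with SDs of 0.73 and 0.28. Every Chd8 V986*/+ value lay within the WT range. The 12-month difference was -0.14 within replicates 1 to 3 and -0.76 within replicates 4 to 6.

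The mean of 9 glucocorticoid-induced genes varied beside Cdkn1a in several groups, though not in all. At 1 month it was 11.10, 11.08 and 11.08 in Chd8 V986*/+ replicates 4 to 6, above the 10.62 to 10.97 of the WT mice and the 10.88 to 10.92 of Chd8 V986*/+ replicates 1 to 3. At 6 months it was 11.32 and 11.34 in WT replicates 2 and 3 and 11.07 and 11.26 in Chd8 V986*/+ replicates 2 and 3, and between 10.54 and 10.83 in the other 8 mice. At 12 months the lowest WT mouse for Cdkn1a, replicate 3 at 8.05, was also the lowest WT mouse for these genes, at 10.41. The Chd8 V986*/+ mice at 12 months ran the other way, in that the highest for Cdkn1a, replicate 3 at 9.20, was the lowest for these genes, at 10.31. At 1 month, Fkbp5, a co-chaperone of the glucocorticoid receptor, was higher in Chd8 V986*/+ mice by 0.34 ± 0.06 (adjp = 0.0546). Called genes made up 0.139% of all genes there. Of the 9 genes, 6 had an unadjusted p under 0.05 (median 0.16), beside 8.80% of all genes. The list mean in replicates 1 to 3 was 10.87, 10.81 and 10.97 in WT and 10.92, 10.88 and 10.89 in Chd8 V986*/+ mice. In replicates 4 to 6 it was 10.77, 10.62 and 10.81 in WT, all below the Chd8 V986*/+ values given above. A difference between the sets was not tested. At E14.5, 6 and 12 months 0 of the 9 were called, with 1, 0 and 3 at an unadjusted p under 0.05, beside 4.56%, 7.59% and 11.6% of all genes. In embryos this mean ranged from 8.17 to 8.53, and none of the 9 genes was near the floor in any group. The part of glucocorticoid-induced expression in the values of Cdkn1a was not tested.

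**Figure D4:**
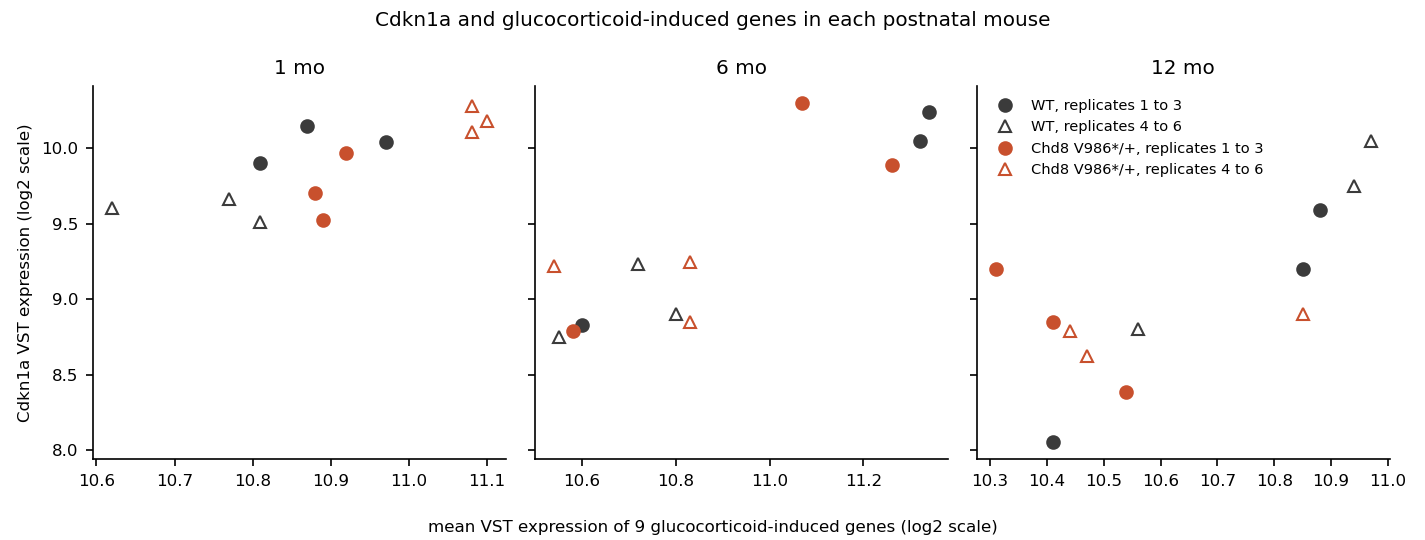
VST-normalized expression of Cdkn1a (log2 scale, y axis) against the mean of 9 glucocorticoid-induced genes (log2 scale, x axis) in each mouse at 1, 6 and 12 months, with WT in dark grey, Chd8 V986*/+ in orange, filled circles for replicates 1 to 3 and open triangles for replicates 4 to 6. At 1 month the 3 orange triangles lie at the upper right, at 10.11 to 10.28 for Cdkn1a, and at 6 months 2 mice of each genotype lie apart from the other 8. The x axes differ between the ages.

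The difference between genotypes was also compared between 12 months and each younger age, comparisons that share the 12-month mice. By limma 0 of the 10 genes changed their genotype difference between 12 months and E14.5, 1 month or 6 months, where 0.0635%, 0.00578% and 0.0578% of 17311 genes did. At an unadjusted p under 0.05 there were 1, 2 and 1 of the 10, beside 11.5%, 11.1% and 8.68% of all genes. The change was -0.17 ± 0.07 for Mdm2 against E14.5 (adjp = 0.354), 0.24 ± 0.09 for Trp53 (adjp = 0.313) and -0.24 ± 0.09 for Ccng1 (adjp = 0.302) against 1 month, and 0.19 ± 0.09 for Trp53 against 6 months (adjp = 0.558). Without WT replicate 4 at 12 months, the Ccng1 change against 1 month was -0.30 and passed the threshold (adjp = 0.0873). That mouse had the lowest Ccng1 of the 12-month WT mice, at 11.56, so leaving it out enlarges the change. It was picked by its result from the drops of single samples, and no conclusion is drawn from it.

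The further targets, regulators and apoptosis genes likewise held no gene that differed between genotypes by limma at any age. For the further p53 targets, 1, 6, 4 and 7 of 41, 41, 41 and 42 genes had an unadjusted p under 0.05 at the 4 ages, beside 4.56%, 8.80%, 7.59% and 11.6% of all genes, and their medians lay between -0.01 and 0.02. For the regulators and relatives the counts were 1, 1, 1 and 2 of 23, 23, 24 and 24 genes, with medians between -0.01 and 0.02. For the apoptosis genes they were 1, 2, 1 and 4 of 16, 15, 16 and 16 genes, with medians between -0.002 and 0.06. Means of Rrm2b, a further target, were higher in Chd8 V986*/+ than in WT mice at all 4 ages. They were 9.14 and 8.95, 10.42 and 10.27, 10.69 and 10.52, and 10.65 and 10.55. Its genotypes did not overlap at 6 months (lowest 10.61, WT highest 10.59). Bmf was lower without overlap at 1 month (highest 7.27, WT lowest 7.28). Both were picked by their values, beside 0.527% and 0.825% of all genes without overlap at those ages.

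Relations among the 10 genes were examined across the 48 mice after the mean of each group was subtracted, in a family of 17 relations of Trp53 or Cdkn1a with the other members, by permutation tests of 100000 permutations within groups. Cdkn1a and Trp53inp1 had the closest relation, with Pearson r = 0.60 (permutation p = 0.00048, adjusted 0.0082) and Spearman rho = 0.52 (permutation p = 0.0018, adjusted 0.019). It was 0.53 without the 2 mice farthest from the median of Cdkn1a. Within the sets of replicates it was 0.73 for replicates 1 to 3 (adjusted permutation p = 0.18) and -0.39 for replicates 4 to 6 (adjusted permutation p = 0.45), so the relation did not hold within both sets. By age it was 0.39, 0.57, 0.85 and 0.19 at E14.5, 1, 6 and 12 months.

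Cdkn1a and Mdm2 were related with r = 0.46 (permutation p = 0.0093, adjusted 0.04) and rho = 0.47 (permutation p = 0.0054, adjusted 0.023). Their r was 0.59 without the 2 mice farthest from the median of Cdkn1a. Trp53 and Mdm2 were related with r = 0.42 (permutation p = 0.0053, adjusted 0.04) and rho = 0.44 (permutation p = 0.0041, adjusted 0.023). Their r was 0.34 without the 2 mice farthest from the median of Trp53, with an adjusted permutation p of 0.14. Bbc3 was related inversely to Trp53, with r = -0.43 (permutation p = 0.0084, adjusted 0.04) and rho = -0.41 (permutation p = 0.0071, adjusted 0.024), and to Cdkn1a, with r = -0.32 (permutation p = 0.013, adjusted 0.043) and rho = -0.44 (permutation p = 0.0023, adjusted 0.019). Without the 2 mice farthest from the median of Trp53, its r with Bbc3 was -0.21, so that relation rests on them, and none of these relations passed within replicates 1 to 3 or within replicates 4 to 6. At E14.5, 1, 6 and 12 months, r was 0.80, 0.41, 0.41 and 0.03 for Trp53 with Mdm2. For Trp53 with Bbc3 it was -0.88, 0.04, -0.50 and -0.14, so both relations of Trp53 were strongest in embryos. Cdkn1a with Mdm2 gave 0.59, -0.17, 0.69 and 0.37, and Cdkn1a with Bbc3 gave -0.41, -0.52, -0.21 and -0.52. Trp53 and Cdkn1a themselves gave r = 0.10 (permutation p = 0.53, adjusted 0.65) and rho = 0.17 (permutation p = 0.27, adjusted 0.42).

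Over the same 48 mice and 16308 genes, the genes whose deviations from the group means were most like those of Cdkn1a were Maff (r = 0.90), Hspb1 (0.84), Map3k19 (0.82), Hspa5 (0.82) and Ncoa5 (0.81), given as a description. Maff encodes a small MAF transcription factor, Hspb1 a small heat shock protein and Hspa5 an endoplasmic reticulum chaperone. Of the 9 other members, Trp53inp1 ranked highest, at place 156, and Trp53 was at place 5154. The genes most like Trp53 were Fxr2 (r = 0.80), Tmtc3 (0.77), Eya3 (0.74), Ccnk (0.74) and Traf6 (0.74). Fxr2, which encodes an RNA-binding relative of the fragile X protein, lies 41.1 kb from Trp53 on chromosome 11 of mm9, on the same strand. Mdm2 was the member that ranked highest by likeness to Trp53, at place 1284.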

How the data were processed

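The authors aligned reads to mm9 with STAR 2.5.2b and quantified transcripts with Salmon 0.11.3, per the submitters' processing notes, and used DESeq2 with a model that corrected for a batch not named in the sources used here. The deposited values are variance-stabilized (VST) expression on a log2 scale for 24444 genes in 48 samples. The labels name a TruSeq kit and the paper KAPA stranded reagents, so whether counting used strand is uncertain. Reads per gene were not used here, the counting error of a gene is unknown, and the precision is that of the 6 mice per group. Groups came from the sample labels.

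Genes with a mean at least 0.5 above the floor of 2.1433 were tested with limma 3.58.1 (R 4.3.3, intensity trend), each age apart for genotype, each genotype apart for age, and all 48 samples for the change of the genotype difference. Adjusted p came from the Benjamini-Hochberg method over all genes tested, with a threshold of 0.1. The fits recovered changes of 1 in simulated data with independent noise, where the smallest change added was 0.5. All 40 genotype differences of the 10 genes were smaller than that. The simulation does not show whether changes of their size would be called. Single differences were also compared by exact permutation (scipy 1.17.1), and all exact p values are given without adjustment for the 40 tests. Alternatives were other filters, variance priors and normalizations, a replicate block, each set of replicates, one fit of 48 samples, leaving out each sample, and, chosen after seeing the data, leaving out 3 WT embryos and relations within sets. Named are the 10 members, Chd8, list genes called between genotypes, up to 3 list genes with the largest increase or decrease called in each WT step, and the 5 genes most like Cdkn1a and Trp53, and some genes this rule names are not reported here. The members and lists were chosen with earlier results of these data known. Promoters are from RefSeq (GRCm38.p6) and loci from the mm9 annotation, without conversion between builds.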

Additional observations from a re-analysis of the deposited data

Results flagged for a closer look

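In 3 of the 80 combinations of gene and group, 1 mouse stood far from the other 5, with a gap to its neighbor above Dixon's critical value. Chance flags about 1 in 20 such groups, that is, about 4 of 80. Bbc3 was 7.09 in Chd8 V986*/+ replicate 2 at 1 month, and the next highest mouse was at 6.80. Sesn2 was 8.14 in WT replicate 1 at 6 months, and the next lowest mouse was at 8.38. Phlda3 was 9.45 in Chd8 V986*/+ replicate 6 at 1 month, and the next highest mouse was at 9.15.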

How the results depend on the processing

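Calls of the 10 genes between E14.5 and 1 month stayed at 10 in each genotype under every alternative run, except in WT within replicates 1 to 3, where Sesn2 was not called. The count between genotypes was 1 at 1 month within replicates 4 to 6 (Cdkn1a) and 1 at 12 months in one fit of all samples (Ccng1). From 1 to 6 months, the WT count of 2 was 4 with a filter at 1.5, 4 in one fit, 0 within replicates 1 to 3, 0 within replicates 4 to 6, and 2 to 4 when single samples were left out. The Chd8 V986*/+ count of 5 was 3 without a filter, 2 in one fit, 0 within replicates 1 to 3, 3 within replicates 4 to 6, and 3 to 7 when single samples were left out. The Chd8 V986*/+ count of 0 from 6 to 12 months, and the count of 0 for the change of the genotype difference from 1 month, reached 1 when single samples were left out. The counts within a set rest on 3 mice per group. The cause of the other shifts was not tested.

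Signs changed in small differences. The genotype difference of Cdkn1a was -0.30 at 1 month and -0.047 at 6 months within replicates 1 to 3, and at 6 months it ranged from -0.14 to 0.23 when single samples were left out. The WT difference of Trp53inp1 from 1 to 6 months was 0.0027 within replicates 1 to 3. From 6 to 12 months in WT, Mdm2 differed by 0.045 and Cdkn1a by 0.57 within replicates 4 to 6, and Cdkn1a ranged from -0.25 to 0.15 when single samples were left out.

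Relations moved both ways in subsets. Without the 2 mice farthest from the median of Trp53, r was 0.34 for Trp53 with Mdm2 and -0.21 for Trp53 with Bbc3. Without the 2 farthest from the median of Cdkn1a, it was 0.59 for Cdkn1a with Mdm2, -0.36 for Cdkn1a with Bbc3 and 0.53 for Cdkn1a with Trp53inp1. Within replicates 1 to 3, r was 0.27 for Trp53 with Mdm2, -0.016 for Trp53 with Bbc3, 0.32 for Cdkn1a with Mdm2, -0.21 for Cdkn1a with Bbc3 and 0.73 for Cdkn1a with Trp53inp1. Within replicates 4 to 6, these were 0.41, -0.52, 0.40, -0.018 and -0.39. Without the 3 WT embryos, they were 0.38, -0.36, 0.47, -0.34 and 0.61.

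Same-numbered samples of the genotypes had correlated deviations above 0.1 in 4 of 6 pairs at E14.5 and in 0, 1 and 0 of 6 pairs at 1, 6 and 12 months. WT samples most like the Chd8 V986*/+ sample of their own number were 4 of 6 at E14.5 and 1, 1 and 0 of 6 later. The numbers were not taken as pairs, so E14.5 tests outside the replicate block leave out this likeness. With the replicate block, 0 genes were called between genotypes at each age, 10, 2 and 0 in the WT steps and 10, 5 and 0 in the Chd8 V986*/+ steps, the same counts as without it.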
